A study of Homo sapiens with 15 samples.

Results

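Matrix metalloproteinases (MMPs) and their tissue inhibitors (TIMPs) were followed as 9 genes chosen by name, of 60670 genes in the count table: the collagenase MMP1, the gelatinases MMP2 and MMP9, the stromelysins MMP3 and MMP10, the membrane-type protease MMP14, and the inhibitors TIMP1, TIMP2 and TIMP3. The series measured messenger RNA by sequencing in HT-1080, a cell line from a human fibrosarcoma, and its title concerns the targeting of senescent cells by the kinase inhibitor GNF-7 through the kinase GCN2. The 15 libraries form 5 groups of 3. One group holds cycling cells with the vehicle DMSO, under a 6 h time label. The other 4 hold cells made senescent over 6 days by a dominant negative mutant of TRF2, which uncaps telomeres, and treated after that with either DMSO or GNF-7 at 1 uM, for 6 h or 24 h. All groups were grown in medium with tet-free serum at 5% oxygen. No cycling cells received GNF-7, so an effect of GNF-7 is described here in senescent cells alone, and senescence came from 1 inducer in 1 cell line. The titles call the libraries biological replicates, without saying how the cultures were kept apart.

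MMPs are zinc-dependent endopeptidases that are made as inactive precursors and cut components of the extracellular matrix and of the cell surface. TIMPs bind the active site of MMPs, and TIMP2 also takes part in the activation of the MMP2 precursor on the cell surface by MMP14. MMPs are known members of the secretory phenotype of senescent cells, and HT-1080 has long been used as a source of MMP2, MMP9 and MMP14.

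The sequence around the catalytic zinc is a part that the 6 proteases share, and it shows how close they are to each other. The coding sequences below (GENCODE 29 transcripts on GRCh38, sense strand) each hold 33 bases, with the codons of the 3 zinc-binding histidines in capitals.
MMP1: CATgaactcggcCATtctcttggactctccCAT
MMP2: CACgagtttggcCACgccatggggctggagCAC
MMP9: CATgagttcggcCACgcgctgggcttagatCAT
MMP3: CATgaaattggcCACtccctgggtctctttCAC
MMP10: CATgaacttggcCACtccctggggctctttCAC
MMP14: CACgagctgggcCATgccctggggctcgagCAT
MMP3 and MMP10 differed at 2 of these 33 bases, and every other pair differed at 6 to 15. Over the whole coding sequence MMP3 and MMP10 were identical at 1217 of 1431 aligned bases (85%), while the other pairs of MMPs were 57.5% to 66.4% identical and the pairs of TIMPs 57.1% to 60.8%. The longest run of identical bases between MMP3 and MMP10 was 96 bases long, at coding bases 401 to 496 of MMP3 and 398 to 493 of MMP10, and it is shown because reads that fall inside it cannot be given to 1 of the 2 genes.
MMP3 and MMP10: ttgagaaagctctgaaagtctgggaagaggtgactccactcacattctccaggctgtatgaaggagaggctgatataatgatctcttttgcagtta
The next longest run between MMPs was 23 bases, in MMP2 and MMP9. How reads with several matches were counted is not given in the sources used here, so the low values of MMP10 are uncertain.

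The members lie on 7 chromosomes (GRCh38, coordinates and exons from GENCODE 29). MMP10 (ENSG00000166670, chromosome 11, 102770503 to 102780628), MMP1 (ENSG00000196611, chromosome 11, 102789920 to 102798160) and MMP3 (ENSG00000149968, chromosome 11, 102835801 to 102843803) are neighbours on the minus strand within 73.3 kb. MMP2 (ENSG00000087245) is on chromosome 16 from 55389700 to 55506691, plus strand, and MMP9 (ENSG00000100985) on chromosome 20 from 46008908 to 46016561, plus strand. MMP14 (ENSG00000157227) is on chromosome 14 from 22836557 to 22849027, plus strand. TIMP1 (ENSG00000102265) is on chromosome X from 47582313 to 47586789, plus strand, TIMP2 (ENSG00000035862) on chromosome 17 from 78852977 to 78925387, minus strand, and TIMP3 (ENSG00000100234) on chromosome 22 from 32801701 to 32863043, plus strand. The exons of 5 genes share bases with those of a member. WTAPP1, over MMP1 and MMP3 on the other strand, had 0 counts in every library, and AC007336.3, on the same strand as MMP2, had 0 to 3. SLC12A5-AS1, on the other strand of MMP9, had 3 to 22 counts per library. For TIMP2, CEP295NL on the same strand had 3 to 100 counts and AC022966.1 on the other strand 9 to 30.

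A RefSeq promoter (GRCh38.p14) was found for 4 members, namely MMP10, MMP14, TIMP1 and TIMP3. The 250 bases before the start of MMP10 (chr11:102780629-102780878, minus strand) are shown because a TATAAA box, in capitals, was found in MMP10 and not in the same 250 bases of the other 3, from 31 to 26 bases before the start.
MMP10: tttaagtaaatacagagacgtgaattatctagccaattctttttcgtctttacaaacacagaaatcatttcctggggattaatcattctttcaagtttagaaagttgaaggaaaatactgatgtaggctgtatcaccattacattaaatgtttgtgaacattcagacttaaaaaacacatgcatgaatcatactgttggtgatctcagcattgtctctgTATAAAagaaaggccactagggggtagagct
TATAAA or its reverse complement TTTATA was in 10.7% of the 35116 promoters in the table. The AP-1 sequence TGAGTCA (reverse complement TGACTCA) was in 4.2% of them and the sequence TTGCATCA (reverse complement TGATGCAA), as bound by ATF4 with C/EBP proteins, in 0.772%, and neither was in the 250 bases before the start of any of the 4. AGGAAG (reverse complement CTTCCT), an ETS factor sequence, was in 28.7% of all promoters and, of the 4, in that of TIMP1, from 87 to 82 bases before the RefSeq start. All promoters were searched over the same 250 bases.

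Library totals ranged from 25991007 to 32323393 counts, and levels are given as CPM, the count of a gene relative to the library's total, with totals scaled by the TMM method. Of 5 mesenchymal markers, 4 passed the filter, with a summed level of 7543 to 7783 CPM in cycling cells, and the fifth, THY1, was at 0 in every group. Sums of 5 epithelial, 5 leukocyte and 5 endothelial markers stayed at 0.486 to 5.00 CPM in all libraries. The mesenchymal sum was 8431 to 9163 CPM in senescent vehicle cells at 6 h, 7269 to 8042 CPM after GNF-7, 8607 to 9623 CPM in vehicle at 24 h and 4909 to 5223 CPM after GNF-7 at 24 h. The share of counts in mitochondrial genes was 3.75% to 5.01% in cycling cells, 11.2% to 12.4% and 13.2% to 15.3% in vehicle and GNF-7 cells at 6 h, and 15.1% to 18.7% and 22.6% to 24.1% at 24 h. The mitochondrial share moved with every comparison below, and leaving mitochondrial genes out of the scaling left every call of a member as it was. In bulk RNA, fewer cells that express a gene and less RNA per cell cannot be told apart.

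Levels per kilobase of exon allow a rough order of genes. They divide by all annotated exons of a gene, and the transcripts expressed were not determined. On the scale of CPM per kilobase, MMP14, which anchors in the plasma membrane, was the most abundant member in every group, at 252 in cycling cells, 311 in senescent vehicle cells at 6 h, 263 after GNF-7 at 6 h, 320 in vehicle at 24 h and 259 after GNF-7 at 24 h (means of 3 libraries). TIMP2 came next (85.9, 141, 143, 152 and 151 in the same order of groups), then TIMP1 (63.1, 96.2, 82.0, 105 and 79.0). MMP2 followed in all groups (17.3, 39.4, 33.8 and 45.9) but that of GNF-7 at 24 h, where MMP1 at 34.5 stood above MMP2 at 27.2. This change of order depends on the exon lengths used, 1970 bases for MMP1 and 4933 for MMP2. In CPM that group had 68.1 for MMP1 and 134 for MMP2. MMP10 was the lowest in every group, at 0.0389 in cycling cells and 0.230 to 0.305 in the senescent groups.

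Of the neighbours in this order, 3 pairs had libraries that overlapped: MMP1 and MMP9 in cycling cells, TIMP3 and MMP3 in senescent vehicle cells at 6 h, and MMP1 and TIMP3 in senescent vehicle cells at 24 h. The 6 proteases summed to 280 CPM per kilobase in cycling cells and 376 in senescent vehicle cells at 6 h, and the 3 inhibitors to 159 and 246. The ratio of the sums was 1.75 ± 0.0136 (SD, n = 3) in cycling cells, 1.53 ± 0.0376 in the senescent vehicle group and 1.39 ± 0.0132 after GNF-7 at 6 h. Vehicle cells had a ratio of 1.45 ± 0.0333 by 24 h and GNF-7 cells one of 1.40 ± 0.0368, with overlapping libraries. MMP14 made up 90.3% of the protease sum in cycling cells and 78.6% after GNF-7 at 24 h, so these sums mainly follow MMP14. These are levels of messenger RNA, which say nothing of secreted, activated or bound protein.

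**Figure D1:**
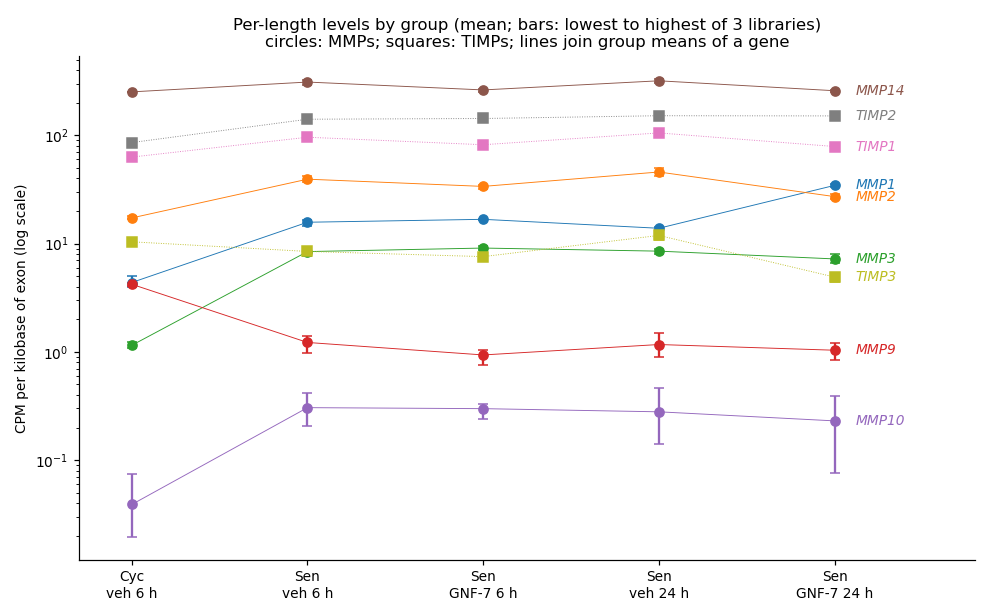
Level of each of the 9 genes in CPM per kilobase of exon (log axis) in the 5 groups; circles (MMPs) and squares (TIMPs) are means of 3 libraries, bars run from the lowest to the highest library, and lines join the means of a gene. MMP14, TIMP2 and TIMP1 keep the first 3 places in every group, MMP10 the last, and MMP1 passes MMP2 after GNF-7 at 24 h (34.5 against 27.2). That crossing depends on the exon lengths used, since in CPM MMP2 stayed higher (134 against 68.1).

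Senescent and cycling cells, both in vehicle and labelled 6 h, were compared first. The senescent cells had 6 days of the TRF2 mutant, which the labels do not give for the cycling cells. Senescence and its inducer thus cannot be told apart here. The proteases MMP1, MMP2, MMP3 and MMP14 and the inhibitors TIMP1 and TIMP2 rose, and MMP9 and TIMP3 fell. The test was edgeR's quasi-likelihood test, and a gene was called at a Benjamini-Hochberg adjusted p under 0.05 over all 18563 genes tested. All 9 members passed the filter on low counts, but MMP10 passed only through the senescent groups, where it is high, so it had to differ and is left out of the counts of this comparison. The other 8 were called, 6 higher and 2 lower, in a comparison in which 70% of all genes tested were called, 35.6% higher and 34.4% lower. The libraries of these 8 did not overlap between the groups, which also held for 71.5% of all genes. The change was at least 2-fold for MMP1, MMP2, MMP3 and MMP9, 4 of 8, and for 26.1% of all genes. The median log2 fold change of the 8 was 0.66, and that of all genes 0.06.

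The stromelysin MMP3, which cuts proteoglycans and activates other MMP precursors, was at 2.33, 2.51 and 2.22 CPM in the cycling libraries and at 15.7, 19.0 and 17.2 CPM in the senescent ones. All senescent libraries lay far above the cycling ones, 7.34-fold on average (log2 fold change 2.88, SE 0.117, edgeR adjusted p 2.07e-31). The interstitial collagenase MMP1, which opens fibrillar collagen, was at 7.88, 9.88 and 8.10 CPM in cycling cells and at 32.3, 28.9 and 32.1 CPM in senescent cells. It rose 3.59-fold (1.85, SE 0.076, adjusted p 4.64e-31). MMP10, the second stromelysin, had 1, 1 and 4 counts in cycling libraries against 11, 23 and 15 counts in senescent ones. The ratio of its summed counts, scaled for library size, was 7.61, with an exact 95% interval of 3.26 to 21.7 that covers counting error only. The interval from the edgeR fit, which includes the spread between libraries, runs from 1.49 to 4.22 on the log2 scale. The fold of MMP10 is thus known much less well than that of its neighbours MMP1 and MMP3. Since the filter fixed that MMP10 had to differ, neither interval is a test of its rise.

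The gelatinases moved in opposite directions. MMP2, which cuts denatured collagen and basement membrane collagen, was at 85.0, 82.5 and 88.3 CPM in cycling cells and at 206, 183 and 195 CPM in senescent cells, a rise of 2.28-fold (1.19, SE 0.060, adjusted p 1.27e-14). MMP9, with like substrates, was at 9.57, 9.95 and 10.0 CPM in cycling cells and at 3.28, 2.31 and 2.98 CPM in senescent cells. The highest senescent library was thus far below the lowest cycling one, and the mean was 3.45-fold lower (log2 fold change -1.79, SE 0.167, adjusted p 7.74e-15). MMP14 was at 1125, 1120 and 1136 CPM in cycling cells and at 1462, 1304 and 1402 CPM in senescent cells. Its rise was small and clear of the replicate spread (0.30, SE 0.035, adjusted p 1.72e-11), and reached 0.45 when only genes with a mean of at least 5 CPM were kept (the 5 CPM filter).

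Among the inhibitors, TIMP2 was at 488, 481 and 483 CPM in cycling cells and at 842, 754 and 789 CPM in senescent cells, a rise of 1.64-fold (0.72, SE 0.038, adjusted p 1.61e-24). TIMP1, which forms a complex with the MMP9 precursor, was at 95.7, 94.9 and 101 CPM in cycling cells and at 156, 145 and 144 CPM in senescent cells (0.61, SE 0.046, adjusted p 6.72e-18). TIMP3, the inhibitor that stays bound to the matrix and also inhibits ADAM proteases, was at 45.9, 48.0 and 49.7 CPM in cycling cells and at 40.4, 39.8 and 36.8 CPM in senescent cells. It was lower in every senescent library, by a small amount (-0.30, SE 0.062, adjusted p 3.25e-05), and the difference was -0.14 with the 5 CPM filter. Per kilobase, the ratio of MMP14 to TIMP2 was 2.94 ± 0.0300 in cycling cells and 2.21 ± 0.0314 in senescent cells, and that of MMP2 to TIMP2 was 0.201 ± 0.00679 and 0.279 ± 0.00222, so TIMP2 gained on MMP14 while MMP2 gained on TIMP2.

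**Figure D2:**
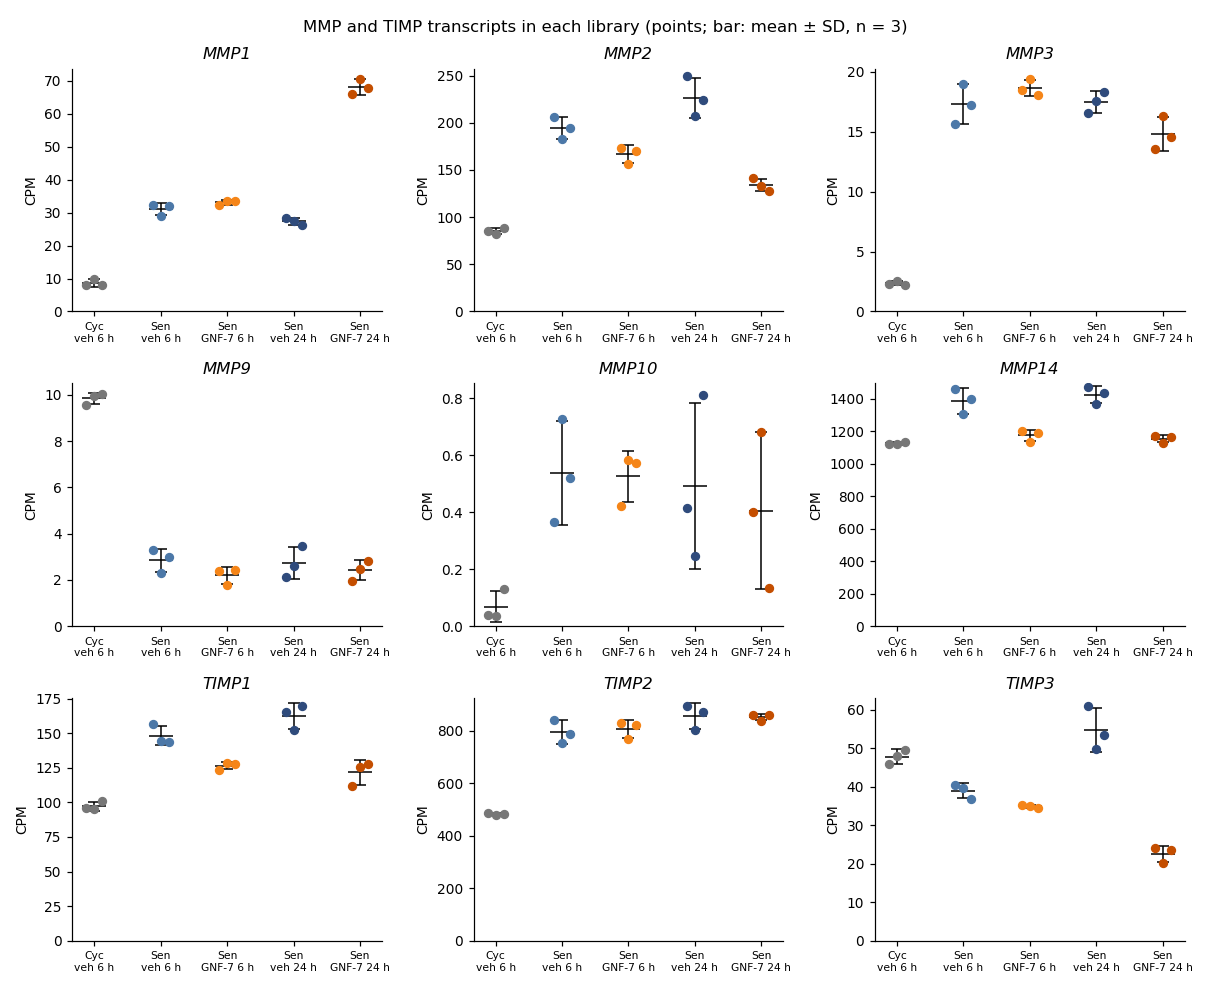
CPM of the 9 genes in each of the 15 libraries, by group; points are libraries, and the black mark and bar are the mean and SD of the group. The cycling libraries of MMP3 (2.22 to 2.51) lie below every senescent library, those of MMP9 (9.57 to 10.0) above, and MMP1 stands apart after GNF-7 at 24 h (65.9 to 70.5).

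The response of senescent cells to 6 h of GNF-7 was read against the same senescent vehicle libraries as before. MMP2, MMP14, TIMP1 and TIMP3 were called lower and no member was called higher. These 4 of 9 stand beside 39.3% of all genes called, 21.4% lower and 17.9% higher, and the libraries of all 4 did not overlap, as in 47.7% of all genes. No member was higher at an unadjusted p under 0.05 in edgeR, and none was called higher by DESeq2 or limma voom. A called change of at least 2-fold was seen in 0 members and in 4.72% of all genes. The members' median was -0.16, against 0.01 for all genes.

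MMP14 fell from 1462, 1304 and 1402 CPM in vehicle to 1201, 1135 and 1188 CPM in GNF-7 cells (log2 fold change -0.24, SE 0.035, edgeR adjusted p 4.45e-08). TIMP1 fell from 156, 145 and 144 to 123, 128 and 128 CPM (-0.23, SE 0.045, adjusted p 2.72e-05). MMP2 fell from 206, 183 and 195 to 174, 156 and 170 CPM (-0.22, SE 0.057, adjusted p 0.00342). These 3 decreases were 1.17- to 1.18-fold, while the vehicle libraries of MMP2 themselves spread from 183 to 206 CPM. The call for TIMP3, from 40.4, 39.8 and 36.8 to 35.3, 34.9 and 34.6 CPM (-0.16, SE 0.064, adjusted p 0.0395), was the least secure. It was lost with RLE size factors (-0.15), total counts (-0.15), the 5 CPM filter (-0.11), DESeq2 (-0.15) and limma voom (-0.16). It was also lost without vehicle replicate 1 (-0.14) or 2 (-0.15) and without GNF-7 replicate 1 (-0.17), 2 (-0.15) or 3 (-0.15).

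The genes that had risen most in senescence showed no call at 6 h. MMP1 was at 32.2, 33.5 and 33.4 CPM in GNF-7 cells (log2 difference 0.09, 95% interval -0.03 to 0.22, edgeR adjusted p 0.276). MMP3 was at 18.5, 19.4 and 18.1 CPM (0.11, -0.06 to 0.28, adjusted p 0.356). The libraries of both overlapped those of vehicle. MMP10 had 13, 17 and 18 counts (log2 difference -0.04, 95% interval of the edgeR fit -1.02 to 0.95), so no difference was detectable at this depth. MMP9 was at 2.37, 1.78 and 2.42 CPM (-0.38, SE 0.191, adjusted p 0.114), and was called lower without vehicle replicate 2 (-0.52, adjusted p 0.0446). TIMP2 was at 831, 768 and 823 CPM (0.02, 95% interval -0.05 to 0.10, adjusted p 0.682).

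After 24 h, GNF-7 cells were compared with vehicle libraries of that time. MMP1 rose and was the only member called higher, and TIMP3, MMP2, TIMP1, MMP14 and MMP3 were called lower. These were 6 of 9 members, beside 58.9% of all genes called, 29.3% higher and 29.7% lower. The libraries of all 6 did not overlap, as in 63.2% of all genes. MMP1 and TIMP3 changed at least 2-fold, as did 14.2% of all genes. The members' median was -0.25, against 0.04 for all genes.

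MMP1 was at 28.3, 27.6 and 26.1 CPM in vehicle and at 65.9, 70.5 and 67.7 CPM after GNF-7, a rise of 2.49-fold (log2 fold change 1.31, SE 0.062, edgeR adjusted p 1.34e-27). Every GNF-7 library was above every other library of the series for this gene. Its neighbour MMP3 was at 16.5, 17.5 and 18.3 CPM in vehicle and at 13.5, 16.3 and 14.5 CPM after GNF-7, a small decrease (-0.24, SE 0.089, adjusted p 0.0196). The nearest libraries of the 2 groups, 16.5 and 16.3 CPM, almost met, and it was no longer called under the 5 CPM filter (-0.14), or without vehicle replicate 3 (-0.21) or GNF-7 replicate 1 (-0.18) or 3 (-0.23). MMP10, on the other side of MMP1, had 13, 7 and 21 counts in vehicle and 12, 21 and 4 after GNF-7 (log2 difference -0.25, 95% interval of the edgeR fit -1.30 to 0.79, adjusted p 0.701). Its libraries spread so widely that no difference was detectable at this depth.

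TIMP3 had the largest decrease among the members: it was at 61.1, 50.0 and 53.4 CPM in vehicle and at 24.0, 20.3 and 23.5 CPM after GNF-7, 2.43-fold lower (-1.28, SE 0.065, adjusted p 1.66e-25). MMP2 was at 249, 207 and 224 CPM in vehicle and at 141, 133 and 128 CPM after GNF-7, 1.69-fold lower (-0.76, SE 0.058, adjusted p 6.67e-11). The GNF-7 libraries of MMP2 remained above those of cycling cells, at 82.5 to 88.3 CPM, whereas those of TIMP3 were below every other library of the series. TIMP1 was at 166, 152 and 170 CPM in vehicle and at 112, 126 and 128 CPM after GNF-7 (-0.42, SE 0.045, adjusted p 6.23e-12). MMP14 was at 1475, 1371 and 1434 CPM in vehicle and at 1171, 1131 and 1164 CPM after GNF-7 (-0.30, SE 0.035, adjusted p 2.18e-11), and was at -0.20 with the 5 CPM filter.

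TIMP2 and MMP9 were not called at 24 h. TIMP2 was at 895, 803 and 872 CPM in vehicle and at 862, 838 and 859 CPM after GNF-7 (-0.01, 95% interval -0.08 to 0.07, adjusted p 0.898), although the 5 CPM filter, which moves the scaling of all genes, gave a called rise of 0.095. MMP9 was at 2.11, 2.61 and 3.48 CPM in vehicle and at 1.97, 2.47 and 2.82 CPM after GNF-7 (-0.16, 95% interval -0.54 to 0.21, adjusted p 0.484). Per kilobase the ratio of MMP1 to TIMP1 was 0.132 ± 0.0109 in vehicle and 0.439 ± 0.0234 after GNF-7, where the 2 genes moved apart, and that of MMP2 to TIMP2 was 0.302 ± 0.0140 and 0.180 ± 0.00872. The mesenchymal marker sum given above moved in the same comparison, from 8607 to 9623 CPM in vehicle to 4909 to 5223 CPM after GNF-7, and its part in these results was not tested. Its genes did not move alike: VIM was at 3863 ± 178 CPM in vehicle and 3557 ± 119 CPM after GNF-7, CDH2 at 130 ± 5.02 and 58.0 ± 3.70 CPM, and SPARC, a matrix protein, at 3247 ± 238 and 623 ± 18.5 CPM.

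**Figure D3:**
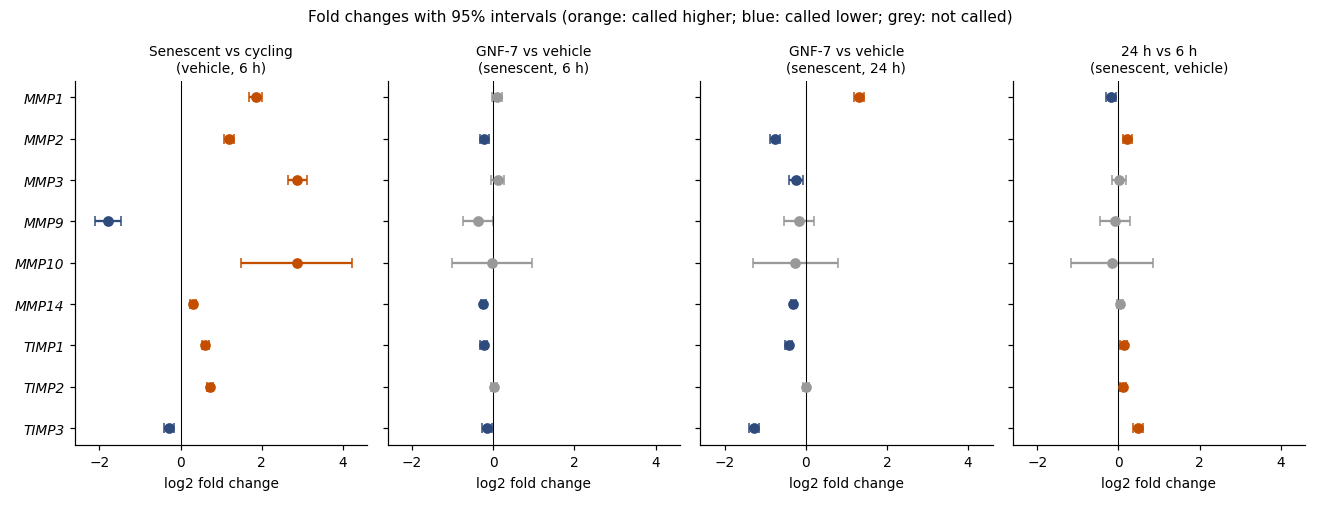
Log2 fold change of the 9 genes in 4 contrasts, with 95% intervals as bars; orange points were called higher, blue points lower, and grey points were not called. MMP1 is called higher in senescence (1.85) and after GNF-7 at 24 h (1.31), while MMP2 is called higher in senescence (1.19) and lower at 24 h (-0.76). The call of MMP10 in senescence was fixed by the filter, which MMP10 passed only through the senescent groups.

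The log2 fold change after 24 h of GNF-7 was tested against that after 6 h in the same fit. It was called for MMP1 (1.22, SE 0.089, edgeR adjusted p 6.20e-18), TIMP3 (-1.12, SE 0.091, adjusted p 9.49e-16), MMP2 (-0.53, SE 0.081, adjusted p 1.56e-05), TIMP1 (-0.19, SE 0.063, adjusted p 0.0188) and MMP3 (-0.34, SE 0.125, adjusted p 0.0287). These 5 of 9 members, 1 higher and 4 lower, stand beside 30.8% of all genes called, 12.8% higher and 18% lower. The difference was at least 2-fold for MMP1 and TIMP3 and for 4.98% of all genes. MMP14, which fell at both times, had a difference of -0.06 (95% interval -0.16 to 0.03, adjusted p 0.374), and TIMP2 one of -0.03 (-0.13 to 0.08, adjusted p 0.747). The calls for MMP1, TIMP3 and MMP2 held in every alternative. That of MMP3 was lost when replicate 1 (-0.28) or 3 (-0.34) of vehicle at 6 h was left out, replicate 2 of GNF-7 at 6 h (-0.32), replicate 3 of vehicle at 24 h (-0.31), or replicate 1 (-0.28) or 3 (-0.33) of GNF-7 at 24 h. For TIMP1 the 5 CPM filter (-0.14) ended the call, as did leaving out replicate 2 (-0.17) or 3 (-0.17) of vehicle at 6 h, replicate 3 of vehicle at 24 h (-0.16) or replicate 1 of GNF-7 at 24 h (-0.13). Leaving out replicate 3 of vehicle at 6 h, replicate 3 of vehicle at 24 h or replicate 1 of GNF-7 at 24 h left 3 members called.

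Vehicle at 24 h was set against vehicle at 6 h to show what changed in senescent cells without GNF-7; both groups also served as controls above. Of 9 members 5 were called, 4 higher and 1 lower, beside 18.5% of all genes called, 9.26% higher and 9.29% lower. None of the 5 changed 2-fold, which 0.533% of all genes did. TIMP3 rose from 40.4, 39.8 and 36.8 to 61.1, 50.0 and 53.4 CPM (log2 fold change 0.49, SE 0.062, edgeR adjusted p 8.84e-09). It held in every alternative, and TIMP3 is the member for which the 2 vehicle groups differed most, so its GNF-7 effect at 24 h was measured from a higher base. MMP2 rose by 0.22 (SE 0.057, adjusted p 0.00755), a call lost with total counts (0.11).

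The other 3 calls were small and unstable. MMP1 was at -0.18 (adjusted p 0.0403), lost under limma voom (-0.18) and without vehicle 6 h replicate 1 (-0.15) or 3 (-0.16) or vehicle 24 h replicate 2 (-0.19) or 3 (-0.15). TIMP1 was at 0.13 (adjusted p 0.0286) and TIMP2 at 0.11 (adjusted p 0.0345), with overlapping libraries for both. Both calls were lost with total counts (0.02 for TIMP1 and -0.0024 for TIMP2), with no filter (0.12 and 0.096), and without vehicle 6 h replicate 2 (0.12 and 0.071) or 3 (0.11 and 0.10) or vehicle 24 h replicate 1 (0.12 and 0.076) or 3 (0.10 and 0.096). Total counts alone also gave another split in this comparison, with 12.5% of the called genes higher in place of 49.9%. MMP3 (0.01), MMP9 (-0.07), MMP10 (-0.15) and MMP14 (0.04) were not called.

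Related genes were read from lists chosen by function, as counts of calls beside the medians and the shares of all genes given above. Of 17 other MMP genes, 8 passed the filter. In senescence 4 were called higher and 1 lower (median 1.06). These values include MMP12, MMP23B and MMP13, whose direction was fixed by the filter. The membrane-type protease MMP16 rose from 36.4 ± 1.09 to 100 ± 6.41 CPM (log2 fold change 1.46) and MMP15, of the same class, from 10.3 ± 0.299 to 19.5 ± 1.56 CPM (0.92). MMP12 and MMP23B, with at most 6 counts in a cycling library, passed the filter only through senescent groups, so they had to come out higher. The macrophage elastase MMP12 had 0 counts in each cycling library and 15 to 31 in the senescent ones, at least 6.44-fold higher when each cycling library is set at a floor of 3 counts, and MMP23B rose by 2.75 from 0.151 CPM. The collagenase MMP13 fell from 1.35 ± 0.399 to 0.190 ± 0.106 CPM (-2.81). It passed the filter only through cycling cells, so it had to come out lower.

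After GNF-7 at 24 h, 2 of these 8 genes were called higher and 3 lower (median 0.11). MMP16 fell to 39.2 ± 1.89 CPM from 97.1 ± 3.92 CPM in vehicle (-1.31), close to its cycling level, and MMP24 fell from 24.7 ± 0.925 to 9.88 ± 1.03 CPM (-1.32). MMP23B (1.16) and MMP15 (0.35) rose. At 6 h 4 were called lower and 0 higher (median -0.41). None was higher at an unadjusted p under 0.05, by DESeq2 or by limma voom, and MMP24 was at -0.45 and MMP16 at -0.36.

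Of 18 genes that activate, inhibit, dock or clear MMPs, 15 passed the filter. In senescence 10 were called higher and 3 lower (median 0.45). The 10 include A2M, which passed the filter only through senescent groups. It had 0 to 9 counts in cycling libraries and 8 to 26 in senescent vehicle ones at 6 h. LRP1, the receptor that takes up MMP and TIMP complexes, rose from 151 ± 4.98 to 667 ± 39.0 CPM (2.14) and stayed between 629 and 664 CPM in the other senescent groups. RECK, a membrane-bound inhibitor of MMPs, rose by 0.48 to 21.8 ± 2.31 CPM. CAV1, the caveolin that docks MMP14, fell by 0.72, and TIMP4 had no counts in any group.

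After GNF-7, 11 of the 15 genes were called lower and 0 higher at each time (medians -0.19 at 6 h and -0.54 at 24 h). The count lower was 9 at 6 h and 8 at 24 h with the 5 CPM filter, which keeps fewer genes and moves the scaling. It was 9 to 12 at each time when 1 library was left out. At both times none was higher at an unadjusted p under 0.05, by DESeq2 or by limma voom. FURIN, the convertase that activates the MMP14 precursor, fell by 0.65 on the log2 scale at 6 h. At 24 h CAV1 fell from 521 ± 25.5 to 135 ± 2.73 CPM (-1.94). RECK was at 25.0 ± 3.29 CPM in vehicle and 13.6 ± 0.544 CPM after GNF-7 at 24 h (-0.88). The difference between the times was called lower for 9 of the 15 genes.

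Of 30 genes of the ADAM and ADAMTS families, some of whose proteases TIMP3 inhibits, 21 passed the filter. In senescence 11 were called higher and 7 lower (median 0.50), and after GNF-7 at 24 h 3 higher and 10 lower (median -0.41). The 7 lower in senescence became 4 with total counts, and 6 higher and 4 lower were called with the 5 CPM filter. That filter keeps fewer genes and moves the scaling of all genes. The 7 genes called lower all had group means above 5 CPM, so the filter kept them. The 11 higher in senescence include ADAM28 and ADAMTS17, which passed the filter only through senescent groups. In a cycling library ADAM28 had 1 to 4 counts and ADAMTS17 1 to 16, against 12 to 28 for ADAMTS17 in senescent vehicle libraries at 6 h. ADAMTS14, a procollagen peptidase, rose from 0.980 ± 0.172 to 14.8 ± 1.64 CPM in senescence (3.93). ADAM19 fell in each of these contrasts, by 0.89 in senescence, from 100 ± 4.09 to 45.5 ± 0.924 CPM at 6 h (-1.14) and from 101 ± 5.20 to 27.6 ± 1.85 CPM at 24 h (-1.87).

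All 15 matrix substrates in the list were looked up, and 12 passed the filter. In senescence 7 were called higher and 5 lower (median 0.34), among them the proteoglycan VCAN with a rise of 2.42 and the basement membrane linker NID1 with a change of -1.43. With total counts, and with the 5 CPM filter, 7 were higher and 3 lower. After GNF-7 at 24 h all 12 were called lower (median -0.51) and 0 higher, with 0 higher at an unadjusted p under 0.05, by DESeq2 or by limma voom. DESeq2 and limma voom each called 11 lower, and total counts 10. VCAN fell from 21.3 ± 2.48 to 3.46 ± 1.01 CPM (-2.61) and the fibronectin gene FN1, one of the mesenchymal markers above, from 1885 ± 90.5 to 860 ± 27.2 CPM (-1.13). At 6 h 8 of the 12 were called lower and 0 higher (0 higher by the same other counts). That count was 4 with the 5 CPM filter and without vehicle replicate 1 or GNF-7 replicate 2, and 5 without vehicle replicate 3 or GNF-7 replicate 3.

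**Figure D4:**
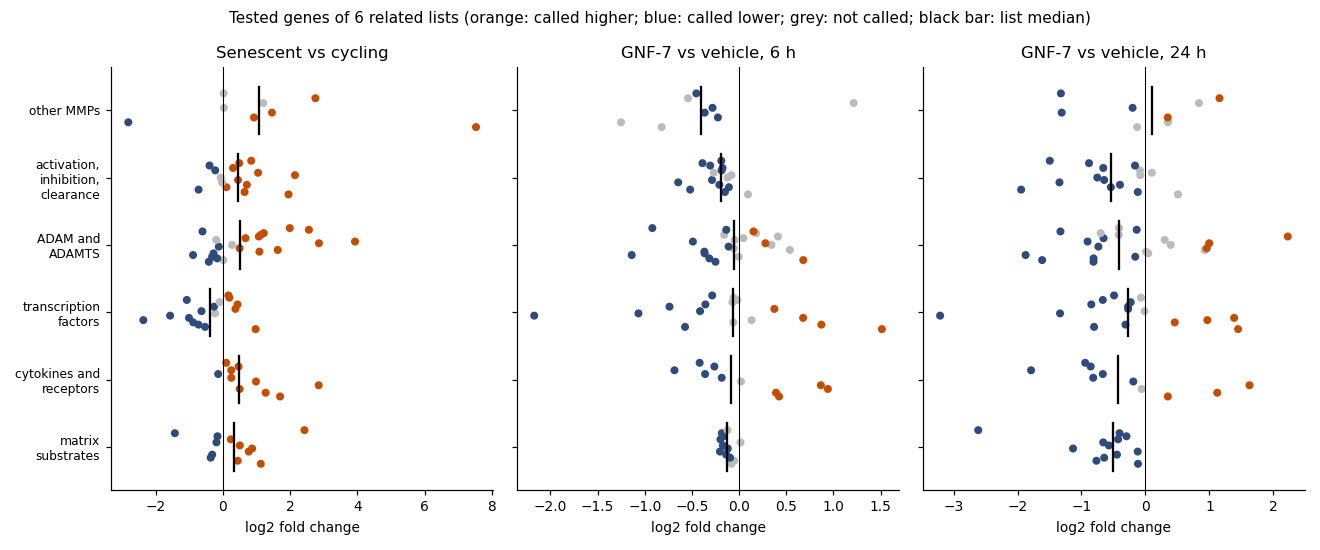
Log2 fold change of the genes of 6 related lists in senescence and after GNF-7 at 6 h and 24 h; each point is a gene that passed the filter (orange called higher, blue lower, grey not called), and the black bar is the list's median. All 12 matrix substrates lie below 0 after GNF-7 at 24 h; the point of MMP12 in senescence depends on the prior count, since cycling libraries held no counts.

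The transcription factors known to act on MMP promoters all passed the filter (16 of 16). In senescence 5 were called higher and 9 lower (median -0.40), and after GNF-7 4 higher and 7 lower at 6 h (median -0.06) and 4 higher and 10 lower at 24 h (median -0.27). ETV4, an ETS factor, fell from 63.0 ± 1.38 to 12.2 ± 2.32 CPM in senescence (-2.37). CEBPB, a C/EBP factor, was at 51.6 ± 4.65 CPM in cycling and 101 ± 5.57 CPM in senescent vehicle cells. After GNF-7 it rose to 288 ± 25.9 CPM at 6 h (1.51) and, from 82.8 ± 8.14, to 226 ± 15.2 CPM at 24 h (1.45). The AP-1 subunit FOS was at 16.8 ± 6.99 CPM in vehicle and 1.82 ± 0.425 CPM after GNF-7 at 24 h (-3.21).

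Of 12 cytokines and receptors known to induce MMPs, 10 passed the filter. In senescence 9 were called higher and 1 lower (median 0.48), and after GNF-7 at 24 h 3 higher and 6 lower (median -0.43). IL1B rose from 159 ± 8.34 to 347 ± 12.2 CPM at 24 h (1.12) and IL6 from 1.24 ± 0.217 to 3.86 ± 0.375 CPM (1.63). Vehicle cells at 6 h had IL6 at 3.85 ± 0.320 CPM (-1.62 over time in vehicle), so its rise at 24 h was measured from a lower base. TGFB2 fell from 32.3 ± 3.23 to 9.36 ± 0.859 CPM (-1.79) and the receptor TNFRSF1A by 0.94. At 6 h 4 were called higher and 5 lower (median -0.08), among them IL6 with a rise of 0.87 and TGFB2 with a change of -0.68. The 5 CPM filter left out IL6 and IL1R1, both called higher at 6 h, so these were not tested again, and 2 were higher with it. The 1 lower in senescence, TGFB1 (-0.14), was called neither with that filter nor with total counts.

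The genes whose pattern over the 15 libraries was most like that of a member were read from the Pearson correlation of log2 CPM over 14222 genes, as a description, since the libraries share their groups. TLL2, a metalloproteinase of the BMP1 family, was nearest to MMP1 (r = 0.994), followed by SPOCD1 (0.989). TLL2 was at 0.382 CPM in cycling cells, 3.35 to 3.88 CPM in the senescent groups but the last, and 10.5 CPM after GNF-7 at 24 h. MMP2 was nearest to PAM (0.994) and GSN (0.992), and MMP3 to LMBR1L (0.991). MMP9 was nearest to SEPHS1 and DNAAF5 (0.982 for both), which were also higher in cycling cells.

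MMP14 was nearest to TMEM115 (0.974) and DDOST (0.973), TIMP1 to SLC39A13 (0.985) and ERGIC3 (0.983), TIMP2 to DNER (0.996) and PLXDC2 (0.994), and TIMP3 to VOPP1 (0.979) and ECI2 (0.974). Many genes share the pattern of MMP1, with 549 above a correlation of 0.95, and few that of MMP14 (11) or TIMP3 (21). The sparse counts of MMP10 gave none above 0.95. Among the members, MMP3 and TIMP2 ran together (0.956), as did MMP2 and TIMP1 (0.952). MMP9 ran against MMP3 (-0.954), TIMP2 (-0.927), MMP1 (-0.863), MMP2 (-0.772) and MMP10 (-0.736). Its correlation was weaker with TIMP1 (-0.659) and MMP14 (-0.343), and positive with TIMP3 (0.405). TIMP3 ran against MMP1 (-0.734).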

How the data were processed

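The authors deposited 1 table of raw read counts per Ensembl gene for 15 libraries from a stranded mRNA kit. Per the submitters' processing notes, bcl2fastq 2.20.0.422, STAR 2.7.9a, featureCounts 1.5.1 and GRCh38 were used; the annotation release and the strand setting are not given in the sources used here. Of 60673 rows, 3 lines of 1 broken entry were left out, and 60400 of 60670 identifiers had a name. Libraries of each group differed by more than sampling noise (chi-square per degree of freedom 3.02 to 12.73), so none was counted as a repeat.

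From the counts, edgeR 4.0.16 (R 4.3.3) filtered genes (filterByExpr), scaled by TMM and fitted 15 libraries with a term per group (robust quasi-likelihood, no replicate block). P-values were adjusted over 18563 genes. SE is the absolute log2 fold change over the square root of the F statistic, and 95% intervals are 1.96 SE on each side. Such an interval can exclude 0 where the test does not, as for MMP9 after GNF-7 at 6 h (-0.751 to -0.00213, edgeR p 0.0534). SD is over 3 libraries, and p-values measure the spread between these libraries. CPM per kilobase used the union of GENCODE 29 exons. Likeness used log2 CPM with a pseudocount of 0.5 and genes with a mean of at least 1 CPM. On simulated counts, 192 of 200 genes changed 2-fold were recovered for GNF-7 at 24 h among 17789 genes, with 7 false calls. The simulation gave all genes the same dispersion and changed well-counted genes alone, up and down alike. It therefore does not give the sensitivity for smaller changes or for sparse genes such as MMP10. Alternatives were RLE size factors, total counts, mitochondrial genes left out of scaling, no filter, a mean of at least 5 CPM, DESeq2 1.42.0, limma 3.58.1 voom, only the groups compared, a replicate block and leaving out each library. The members and lists were chosen with earlier results of these data known. Besides all members, the genes named are the called genes of each list with the 2 largest rises and falls per contrast, defining members of a list, and the 2 genes most like each member; some genes that meet this rule are not reported here. No protein sequences were used here.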

Additional observations from a re-analysis of the deposited data

Results flagged for a closer look

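For 5 members the effect of GNF-7 differed between the times, by the edgeR test of the difference itself (24 h minus 6 h, log2). MMP1 had a difference of 1.22, with no call at 6 h and a rise at 24 h. TIMP3 had one of -1.12 and MMP2 one of -0.53, each with a larger decrease at 24 h. TIMP1 (-0.19) and MMP3 (-0.34) were also called, but these 2 calls were lost without single libraries. Groups of 3 libraries were too small for a test of single libraries.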

How the results depend on the processing

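The 8 members other than MMP10 were called in senescence in each fit that left out 1 library. MMP10 was called there too, but its call was fixed by the filter. In the same fits the counts of members were 3 to 4 for GNF-7 at 6 h and 5 to 6 at 24 h. They were 3 to 5 for the difference of the effects and 2 to 4 for vehicle over time. For vehicle over time total counts gave 2 calls and no filter 3, in place of 5. Of 719 values of single members under an alternative, 648 kept direction and call, 42 lost the call, 1 gained it and 28 reversed; the cause was not tested. Scaling moved the median of the genes common to all fits from -0.15 to -0.02 (total counts) or -0.0013 (5 CPM filter) in senescence, and from -0.0026 to -0.11 (total counts) for vehicle over time.

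The values that reversed were small. With total counts TIMP2 was at 0.022 for GNF-7 at 24 h, and over time in vehicle MMP3 was at -0.10, MMP14 at -0.072 and TIMP2 at -0.0024. With the 5 CPM filter, which left out MMP9 and MMP10, TIMP2 was at 0.095 at 24 h (edgeR adjusted p 0.0176) and 0.020 for the difference. With no filter MMP3 was at -0.00075 over time. Leaving out 1 library gave both signs for the following uncalled values. For GNF-7 at 6 h MMP10 ranged from -0.25 to 0.25, positive without vehicle replicate 2 or GNF-7 replicate 1, and TIMP2 from -0.017 to 0.070, negative without the same 2 libraries. For GNF-7 at 24 h MMP9 ranged from -0.33 to 0.038, positive without vehicle replicate 3, MMP10 from -0.86 to 0.28, positive without replicate 3 of either group, and TIMP2 from -0.056 to 0.022, positive without vehicle replicate 1 or 3 or GNF-7 replicate 2. For the difference MMP10 ranged from -0.82 to 0.32, positive without replicate 3 of either group at 24 h, and TIMP2 from -0.076 to 0.0064, positive without replicate 2 of vehicle at 6 h or replicate 1 of vehicle at 24 h. Over time in vehicle MMP3 ranged from -0.055 to 0.086, MMP9 from -0.28 to 0.092, MMP10 from -0.68 to 0.17 and MMP14 from -0.0043 to 0.078. MMP3 was negative there without replicate 1 at 6 h or 3 at 24 h, MMP9 positive without replicate 1 of either time, MMP10 positive without replicate 2 of either time, and MMP14 negative without replicate 2 at 6 h.

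With a replicate block the same number of members was called in each contrast (9, 4, 6, 5 and 5), and 13032, 7481, 11031, 5921 and 3711 of all genes. The 9 in senescence include MMP10, whose call was fixed by the filter. Same-numbered libraries did not deviate together (correlations from -0.035 to 0.082), so the numbers were not taken as pairs.

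Depth limits MMP10, with 1 to 23 counts per library, most. Reads shared by MMP3 and MMP10 and the counting strand could not be checked in the counts, and protein was not analysed here.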
